A study of Mus musculus with 2 samples.

Results

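The transcripts described here are annotated as targets of nonsense-mediated decay and were nonetheless present at a measurable level in hippocampal tissue of amyloid-model mice. They were chosen by their level: a transcript of the annotation class nonsense_mediated_decay was a member if its TPM, a transcript abundance scaled by length and depth, reached 1 in each library under both deposited transcript quantifications. Of 141767 transcripts in all, 7186 belonged to the class and 1205 of these, from 1069 genes, were members. Because TPM selected them, their levels and shares are given as descriptions with no test.

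Total RNA came from tissue labelled layer of hippocampus of adult female 5xFAD/CAST mice aged 8 to 10 months. 5xFAD mice carry human amyloid precursor protein and presenilin transgenes with familial Alzheimer mutations under the Thy1 promoter, which is active in neurons, and CAST is a wild-derived inbred strain. Both libraries, labelled biological replicates 1 and 2, belong to 1 group that shares this background, with no control group. Both carry the same donor record. Whether they are 2 animals the labels do not say, and every SD (n = 2) measures only the spread between these samples. The library input was 300 ng of RNA with spike-in RNA, and replicates 1 and 2 held 27682993 and 32169915 expected counts on mouse transcripts. The labelled tissue was checked against markers: all 6 neuron, 5 astrocyte, 5 oligodendrocyte and 6 microglia markers were detected in both libraries, from 26.75 TPM for Mog to 1148 TPM for Gfap. In such bulk tissue, fewer cells of a type and less RNA per cell cannot be told apart.

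Nonsense-mediated decay is the pathway that removes transcripts whose reading frame ends too early. When a ribosome terminates well upstream of the last exon junction, the exon junction complex still bound downstream marks the transcript for decay through UPF1 and the SMG kinases and nucleases. The annotation applies this junction rule to spliced transcripts, so membership of the class is a prediction from structure and not a measurement of decay. Many splicing regulators use the pathway on their own transcripts, by including a so-called poison exon that carries a stop codon or by skipping an exon and shifting the frame.

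The sequences below show how the reading frame of a member ends. Each pair gives the member first and below it the coding transcript that starts at the same start codon, 5′ to 3′, from 21 bases before the first difference. The member runs to its stop codon, which is in capitals, and the coding transcript is shown for comparison over up to 60 bases. All are coding bases of the GENCODE M21 transcript set on mm10. The first 3 pairs are poison exons of splicing activators of the SR class, shown because the stop codon lies in an exon that the coding transcript lacks. Srsf3-201 lies on chromosome 17 (29032632 to 29042897, plus strand), Tra2b-206 on chromosome 16 (22246462 to 22265926, minus strand) and Tra2a-202 on chromosome 6 (49243924 to 49264011, minus strand).
Srsf3-201: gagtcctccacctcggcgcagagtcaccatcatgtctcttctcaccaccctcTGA
Srsf3-202: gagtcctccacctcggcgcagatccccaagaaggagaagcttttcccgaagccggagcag
Tra2b-206: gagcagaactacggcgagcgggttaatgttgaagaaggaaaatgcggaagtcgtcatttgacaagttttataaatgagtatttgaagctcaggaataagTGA
Tra2b-204: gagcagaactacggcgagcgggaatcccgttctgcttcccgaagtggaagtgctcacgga
Tra2a-202: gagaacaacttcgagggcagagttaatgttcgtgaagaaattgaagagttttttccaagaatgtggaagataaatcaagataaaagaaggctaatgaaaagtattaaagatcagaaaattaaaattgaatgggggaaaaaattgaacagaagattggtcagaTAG
Tra2a-201: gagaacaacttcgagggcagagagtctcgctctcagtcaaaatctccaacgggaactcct

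The extra exon was 456 nucleotides long in Srsf3-201, 276 in Tra2b-206 and 306 in Tra2a-202. The reading frame ended 34, 81 and 144 bases into it, stop codon included. The next 3 pairs are skipped exons of splicing genes, shown because the exon that is left out does not itself hold the stop: joining its neighbours shifts the frame and a stop codon follows. Clk1-210, from the gene of a kinase of SR proteins, lies on chromosome 1 (58412000 to 58424066, minus strand) and skips 91 nucleotides. Tardbp-228, from the gene of the RNA-binding protein TDP-43, lies on chromosome 4 (148618035 to 148626770, minus strand) and skips 164. Snrpa1-201, from the gene of a U2 small nuclear ribonucleoprotein component, lies on chromosome 7 (66060544 to 66074580, plus strand) and skips 80.
Clk1-210: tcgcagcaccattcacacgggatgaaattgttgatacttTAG
Clk1-201: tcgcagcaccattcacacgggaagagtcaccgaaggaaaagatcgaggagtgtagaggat
Tardbp-228: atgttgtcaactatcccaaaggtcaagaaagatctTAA
Tardbp-202: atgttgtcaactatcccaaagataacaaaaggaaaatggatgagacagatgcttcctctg
Snrpa1-201: tttcagaaagtgaaactcaaatttTAA
Snrpa1-206: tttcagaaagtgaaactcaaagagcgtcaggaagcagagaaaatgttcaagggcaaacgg

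The stop codon was complete 21 bases after the skipping junction in Clk1-210, 17 bases after it in Tardbp-228 and 6 bases after it in Snrpa1-201. The last 4 pairs are the members of high level that depart from the coding transcript at a splice site or an exon, shown because 1 change of splicing is the first difference between an abundant member and the coding transcript. Ppia-201 (chromosome 11, 6415870 to 6419815, plus strand) uses a donor site 5 bases further downstream and so adds gtcgg. Ndufa3-204 (chromosome 7, 3617391 to 3620163, plus strand) uses a donor 10 bases further downstream and adds gtaagtacag; its pair begins at the start codon, 10 bases before the difference. Rpsa-206 (chromosome 9, 120127789 to 120131559, plus strand) uses an acceptor 73 bases further upstream, and Prdx6-208 (chromosome 1, 161241015 to 161251186, minus strand) skips an exon of 157 bases.
Ppia-201: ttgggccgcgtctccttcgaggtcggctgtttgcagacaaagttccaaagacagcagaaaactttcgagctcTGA
Ppia-202: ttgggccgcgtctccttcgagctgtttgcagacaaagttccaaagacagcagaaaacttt
Ndufa3-204: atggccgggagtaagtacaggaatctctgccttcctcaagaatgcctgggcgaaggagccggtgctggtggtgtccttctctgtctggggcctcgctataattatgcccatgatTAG
Ndufa3-202: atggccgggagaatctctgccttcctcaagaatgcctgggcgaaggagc
Rpsa-206: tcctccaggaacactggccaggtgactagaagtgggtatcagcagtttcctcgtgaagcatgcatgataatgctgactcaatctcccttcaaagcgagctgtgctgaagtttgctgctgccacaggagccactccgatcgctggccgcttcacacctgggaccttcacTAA
Rpsa-204: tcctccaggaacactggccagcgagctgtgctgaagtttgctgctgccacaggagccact
Prdx6-208: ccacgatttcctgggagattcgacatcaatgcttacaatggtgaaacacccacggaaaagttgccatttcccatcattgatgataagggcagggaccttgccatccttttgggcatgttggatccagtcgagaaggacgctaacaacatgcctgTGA
Prdx6-202: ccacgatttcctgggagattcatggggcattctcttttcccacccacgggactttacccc

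The members were mostly scarce transcripts. Their median level, as the mean of both libraries, was 3.50 TPM with quartiles of 2.07 and 7.04 TPM, and 275 lay under 2 TPM. At the upper end 202 members stood at 10 TPM or more and 8 at 100 TPM or more, and the 10 highest held 20.9% of the summed TPM of all members. The median member had 128 expected counts, and 713 members had a mean of at least 100 counts. Just inside the threshold lay Pi4ka-204, Eml5-206 and Thrap3-204, each with a lowest TPM of 1 among its 4 values. Just outside it lay Pop4-206, Opa1-205 and Pitpnm1-209, whose lowest values were 0.9996, 0.999 and 0.9987 TPM.

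As a whole the class was a small part of the transcriptome and nearly equal in both libraries. All 7186 annotated transcripts of the class summed to 1.247% and 1.245% of mouse TPM in replicates 1 and 2, and the members alone to 0.954% and 0.961%. Within nuclear protein-coding genes the class took 2.76% ± 0.0616 (SD, n = 2) of the TPM. In the second quantification, whose tables have the column layout of kallisto, the class took 1.44% of mouse TPM against 1.25% in the tables of RSEM layout. The members held 76.8% ± 0.472 of the class TPM in the RSEM layout and 68.0% ± 0.276 in the kallisto layout. In all, 16.8% of the annotated class passed the threshold, against 33.1% of 58797 protein_coding and 29.2% of 21848 retained_intron transcripts.

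The components of the decay pathway were all expressed. All 29 genes listed as decay factors, exon junction complex members and decay enzymes reached 1 TPM in each library, and their median level was 17.5 TPM. The central helicase Upf1 stood at 25.4 ± 0.976 TPM, its partner Upf2 at 14.3 ± 0.00707 TPM and the kinase Smg1, which phosphorylates UPF1, at 28.5 ± 1.76 TPM. Smg6, the nuclease that cuts the target, stood at 14.0 ± 0.361 TPM, and the adaptor Smg5 at 33.0 ± 3.87 TPM. The exon junction complex proteins Rnps1 and Eif4a3 stood at 52.3 ± 2.18 and 37.55 ± 2.32 TPM. Of these 29 genes, 7 have an annotated transcript of the decay class themselves and none had a member, where 28.8% of all 3713 detected genes with such a transcript held one. At 5 to 20 TPM, near the median level of the list, 23.4% of those genes did. The closest was Smg5-202, whose lowest value was 0.668 TPM.

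**Figure D1:**
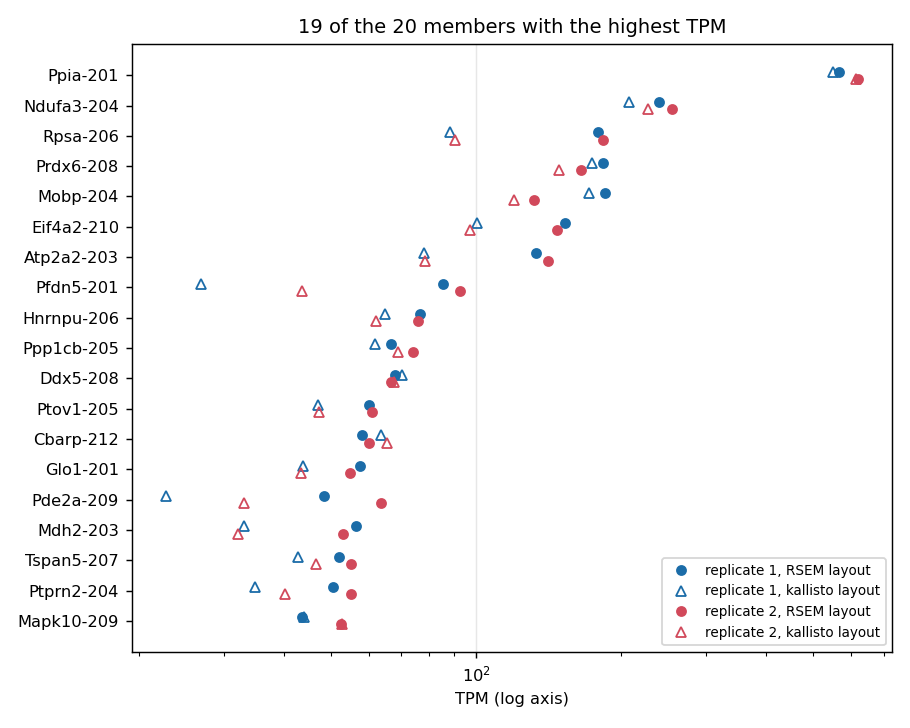
TPM on a log axis for 19 of the 20 members with the highest mean TPM, one row per transcript. Filled circles are the RSEM layout and open triangles the kallisto layout, blue for replicate 1 and red for replicate 2. The libraries mostly lie close together within a layout, with Mobp-204 and the kallisto layout of Pfdn5-201 and Pde2a-209 wider apart. Most of these members are lower on average in the kallisto layout, by the most in Pfdn5-201, Rpsa-206 and Pde2a-209. Ddx5-208, Cbarp-212 and Mapk10-209 are slightly higher in it.

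The highest member was Ppia-201, from the gene of cyclophilin A, a protein-folding enzyme. Its level was 567 TPM in replicate 1 and 619 TPM in the other (593 ± 37.0, SD, n = 2), and 548 and 612 TPM in the kallisto layout, so all 4 values lay close together. It made up 83.0% and 85.6% of the TPM of its gene, and 77.9% and 78.1% in the kallisto layout. The coding transcript Ppia-202 was listed at 6.08 and 5.81 TPM in the RSEM layout and at 145 and 164 TPM in the kallisto layout. Its first difference from the member is the 5-base donor shift shown above, and it also has 429 bases in all that the member lacks, while the member has 5 that it lacks. The frame of Ppia-201 ends after 40 codons, against 164 in Ppia-202. Ppia, like the ribosomal protein genes, has processed copies of near-identical sequence in the genome, and how reads were divided between them was not tested.

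Ndufa3-204 followed, from the gene of a subunit of respiratory complex I. Its levels were 239 and 255 TPM (247 ± 11.0), or 208 and 227 TPM in the kallisto layout, and it took 91.9% and 91.6% of its gene. The coding transcripts Ndufa3-201 and Ndufa3-202 stood at no more than 10.6 TPM in any of the 4 columns. Ndufa3-203, also of the class, stood at 0 TPM in the RSEM layout and at 23.1 and 24.7 TPM in the kallisto layout. Ndufa3-204 carries 10 bases outside the exons of every coding transcript of its gene, but no base or junction of its own. The reading frame of Ndufa3-204 ends after 38 codons, against 100 in Ndufa3-202. Its stop codon lies 56 nucleotides before the last junction, close to the limit of the junction rule.

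Several members from ribosomal protein genes had different levels in the quantifications. Rpsa-206, from the gene of a protein of the small subunit, stood at 179 and 183 TPM (80.9% and 81.0% of its gene) in the RSEM layout and at 88.4 and 90.5 TPM (49.7% and 49.8%) in the kallisto layout. Both libraries gave the lower value in the kallisto layout. Rpl12-201, of the large subunit, went from 31.1 and 29.25 TPM to 2.41 and 3.89 TPM, and Rpl27a-205 differed the other way, from 4.25 and 6.0 TPM to 146 and 171 TPM. Rpl14-205 likewise stood at 46.6 and 44.2 TPM against 149 and 166 TPM in the kallisto layout. Of the 83 ribosomal protein genes 80 were detected, 19 of them with an annotated transcript of the class. A member was held by 9 of these 19 (47.4%), against 44.9% of all genes above 200 TPM with an annotated transcript of the class. The median level of all 83 ribosomal genes was 223 TPM, and that of the 19 alone was not taken. The 9 members took a median of 6.49% of the gene.

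Some abundant members carry the complete coding sequence. Mobp-204, from a myelin gene of oligodendrocytes, stood at 185 and 132 TPM (159 ± 37.4) and was lower in replicate 2 in both layouts, with 171 and 120 TPM in the kallisto layout. Its gene fell alike, from 294 to 210 TPM, and so the share of Mobp-204 was 63.0% and 62.9%, or 47.3% and 48.1% in the kallisto layout. All 5 oligodendrocyte markers were lower in replicate 2, with Mbp at 952 and 778 TPM and Mag at 103 and 99.4 TPM, and the part of oligodendrocyte content in the value of Mobp-204 was not tested. The coding sequence of 81 codons is that of the coding transcript Mobp-206, and its last junction lies 264 nucleotides after the stop codon. Atp2a2-203, from the gene of the calcium pump SERCA2, has the same 1044 codons as Atp2a2-201 and stood at 133 and 141 TPM, against 56.7 and 57.7 TPM for that coding transcript. In the kallisto layout the order was the reverse, with Atp2a2-203 at 78.0 and 78.3 TPM and Atp2a2-201 at 89.0 and 92.5 TPM.

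The remaining members at 70 TPM or more were of several kinds. Prdx6-208, from the gene of the antioxidant enzyme peroxiredoxin 6, stood at 183 and 165 TPM and took 63.2% and 59.4% of its gene. Eif4a2-210, from the gene of a translation initiation helicase, stood at 153 and 147 TPM, or 100 and 97.1 TPM in the kallisto layout. Pfdn5-201, from the gene of a prefoldin chaperone subunit, stood at 85.4 and 92.4 TPM, but at 26.9 and 43.5 TPM in the kallisto layout. Hnrnpu-206 was even across all 4 columns, between 61.9 and 76.4 TPM, and Ppp1cb-205, from the gene of a phosphatase catalytic subunit, lay between 61.7 and 74.0 TPM. The other 9 of the 20 highest were Ddx5-208, Ptov1-205, Cbarp-212, Glo1-201, Pde2a-209, Mdh2-203, Tspan5-207, Ptprn2-204 and Mapk10-209, between 48.0 and 67.3 TPM on average. Of these 20 members 11 have at most 10 bases outside the exons of their gene's coding transcripts.

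The share of the parent gene was 14.9% for the median member, with quartiles of 7.66% and 27.1%. The medians were 14.8% and 14.7% in replicates 1 and 2, and 15.5% and 15.1% in the kallisto layout. In all, 407 members made up less than 10% of their gene, 455 between 10% and 25%, 242 between 25% and 50%, and 101 at least 50%. In both layouts 74 members reached 50%, of which 57 belong to a gene with an annotated coding transcript. A member was the highest transcript of its gene in all 4 columns in 139 cases, 17 of them in genes with no coding transcript. Such genes are few: 18 members belong to them, and all 18 are tagged as readthrough transcripts that join neighbouring genes.

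**Figure D2:**
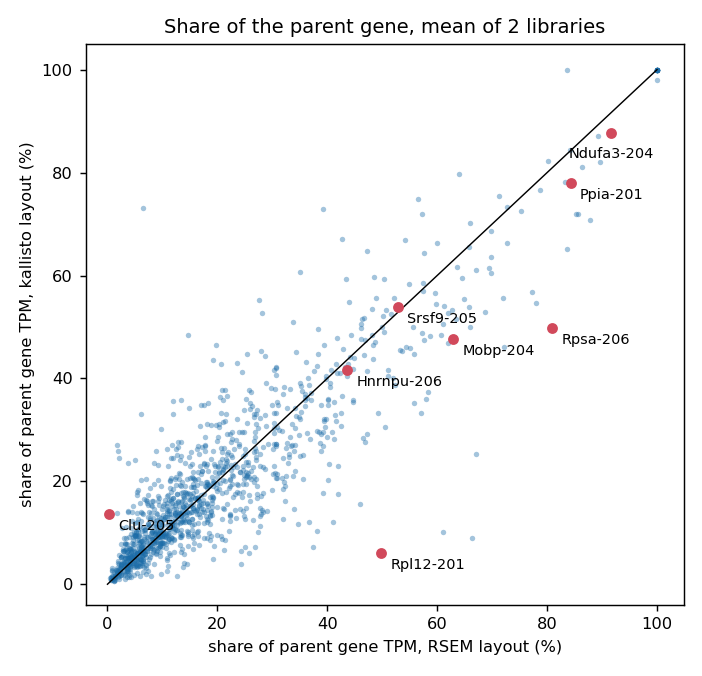
Share of parent gene TPM for each of the 1205 members, RSEM layout on the x axis and kallisto layout on the y axis, both in percent and as means of 2 libraries, with the line of equality. Most points lie along the line, for transcripts that the rule required to reach 1 TPM in both layouts. Ndufa3-204 and Ppia-201 are high in both layouts, while Rpl12-201 lies far below the line and Clu-205 above it.

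Beyond the 4 readthrough transcripts Gm20683-201, Gm20605-201, Gm20716-201 and Gm49325-201, which are the sole transcripts of their genes, the shares of genes above 5 TPM were led by Ndufa3-204. Mnat1-203, from the gene of an assembly factor of the CDK-activating kinase, took 91.9% and 86.6% of its gene and skips an exon of 74 bases. The mitochondrial ribosomal transcript Mrps14-201 took 88.9% and 83.8%, and Rnf114-203, from the gene of a ubiquitin ligase, 86.7% and 83.7%. Mmaa-202, from a gene of mitochondrial cobalamin metabolism, uses a donor 4 bases upstream of the coding one and took 83.9% and 84.2%, with 84.5% and 84.1% in the kallisto layout. Nkx6-2-201, from the gene of a homeobox factor of oligodendrocytes, kept the coding sequence and took 91.6% and 79.5%. The others by this ranking lay between 69.9% and 77.3% on average and were Pgs1-201, Syt16-201, Dirc2-202, Nkiras1-201, Bak1-201, Eipr1-201, Pik3cb-203 and Jmjd4-204, after Ppia-201 and Rpsa-206. Bak1-201 was the least even of them, at 62.1% and 82.4%.

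Most members belong to a gene with no other member. Of the 1069 parent genes 950 had 1 member, 103 had 2, 15 had 3 and 1 had 4. The gene with 4 was Agtpbp1, which encodes a deglutamylating enzyme of tubulin, and together they made up 27.7% of its TPM. Among the genes with 3 were Tardbp (30.5% together), Hnrnpd (28.1%), the cell adhesion gene Nrcam (23.0%) and the receptor phosphatase gene Ptprg (62.0%). These genes were chosen after their values were seen.

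Many genes of splicing regulators held members. Over all detected genes with an annotated transcript of the class, the share that held a member varied with the level of the gene: it was 6.38% at 1 to 5 TPM, 36.1% at 20 to 50 TPM and 49.6% at 50 to 200 TPM. Among SR protein genes 7 of 11 held a member, among hnRNP genes 10 of 16 and among other splicing regulators 26 of 41, with median gene levels of 42.9, 67.3 and 54.7 TPM. Their members took a median of 14.0%, 12.5% and 7.61% of the gene, set against 14.9% over all members. The median gene levels, here and for the other lists, cover all genes listed, with or without an annotated transcript of the class. These lists were not tested against other genes of like level.

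Among the 8 SR members, Srsf9-205 had the largest share. It stood at 19.7 and 20.3 TPM, or 21.67 and 21.02 TPM in the kallisto layout, and took 50.6% and 55.2% of its gene; its start codon is not annotated. Srsf6-201 stood at 11.1 and 8.25 TPM and took 24.4% and 20.5%. Srsf3-201, whose poison exon is shown above, stood at 7.70 and 8.06 TPM (12.9% and 13.7%) and at 12.8 and 12.1 TPM in the kallisto layout. Tra2a-202 stood at 4.45 and 4.61 TPM, taking 17.1% and 19.4%, and Tra2b-206 at 4.80 and 4.22 TPM, taking 13.8% and 12.9%. The layouts moved these in opposite directions, Tra2a-202 to 8.75 and 7.31 TPM and Tra2b-206 to 2.81 and 2.36 TPM. Srsf1-204 took 13.6% and 15.5% (8.28% and 6.46% in the kallisto layout), and Srsf4-203 and Srsf4-204 between 4.49% and 12.4%. The libraries ordered this pair differently: Srsf4-203 was higher in replicate 1 and Srsf4-204 in replicate 2, in both layouts.

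The 15 hnRNP members were led by Hnrnpu-206 at 43.3% and 44.0% of its gene, 40.9% and 42.5% in the kallisto layout. The gene encodes a nuclear scaffold protein that binds RNA. Hnrnpa1-203 keeps the coding sequence of Hnrnpa1-202 and stood at 33.4 and 21.8 TPM, lower in replicate 2 in both layouts. Ptbp2-206, from the gene of the neuronal polypyrimidine tract protein, stood at 9.22 and 6.92 TPM and took 17.7% and 14.1%. Its relative Ptbp1-201 stood at 3.39 and 2.16 TPM. Syncrip-203 stood at 5.24 and 4.45 TPM and took 19.2% and 15.9%. The other members, from Hnrnpa1, Hnrnpa2b1, Hnrnpd, Hnrnpdl, Hnrnpll, Hnrnpr and Hnrnpu, took between 2.85% and 14.4% of their genes on average. Of these, Hnrnpu-209 was not stable to the quantification, with 19.1 and 24.9 TPM in the RSEM layout and 2.94 and 1.81 TPM in the kallisto layout.

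The 34 members among other splicing regulators were of several kinds. Ddx5-208, from the gene of an RNA helicase, keeps an intron and stood at 67.8 and 66.7 TPM (22.7% and 21.8% of the gene), with 70.3 and 67.5 TPM in the kallisto layout. Celf2-228, Srpk2-204 and Khdrbs3-204 followed at 28.5, 27.7 and 24.5 TPM on average. Clk1-210 stood at 17.0 and 18.8 TPM, or 13.2 and 14.4 TPM in the kallisto layout, and took 27.6% and 33.0% of its gene, against 3.37 and 4.54 TPM for the coding transcript Clk1-201. Tardbp-228 stood at 15.7 and 16.1 TPM, close to the 15.06 and 14.99 TPM of Tardbp-202, which is 1 of several coding transcripts. It took 18.7% and 21.2% of its gene, and the coding transcripts together 49.7% on average. Snrpa1-201 took 40.2% and 54.1% of its gene in the RSEM layout, and 24.96% and 33.5% in the kallisto layout.

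Synaptic genes held 10 members from 7 genes, of 10 detected genes with an annotated transcript of the class (70.0%). Over all genes at 50 to 200 TPM with an annotated transcript of the class, 49.6% held a member. The median of the whole list lay at 124 TPM, and that of the 10 genes with such a transcript was not taken. The shares of the 10 members were low, with a median of 6.38%. Gria2-203, from the gene of the AMPA receptor subunit that sets calcium permeability, stood at 1.98 and 2.11 TPM and took 0.851% and 0.878% of its gene, against 116 and 123 TPM for the coding transcript Gria2-202. Gria3-206, from another AMPA receptor subunit gene, took 21.6% and 16.0% in the RSEM layout and 7.28% and 11.6% in the kallisto layout. The presynaptic adhesion gene Nrxn3 held Nrxn3-213 (7.47% and 9.72%) and Nrxn3-208 (8.40% and 8.38%). Shank3-208 and Dlg1-209, from postsynaptic scaffold genes, stood at 4.85 and 7.53 TPM and at 4.80 and 3.46 TPM. The kallisto layout gave Shank3-208 as 13.7 and 14.2 TPM and Dlg1-209 as 3.62 and 1.77 TPM. Camk2g-205 took 2.56% and 1.45% of its gene.

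Of 38 detected genes on the list of amyloid processing and Alzheimer risk, 8 have an annotated transcript of the class and 3 of these (37.5%) held a member. Over all genes with such a transcript at 20 to 50 TPM, where the median of the whole list lay at 36.8 TPM, 36.1% did. Adam10-202, from the gene of the main alpha-secretase, stood at 5.5 and 7.08 TPM and took 19.5% and 23.2% of its gene, or 29.15% and 34.25% in the kallisto layout. It uses an acceptor 26 bases further downstream than Adam10-201, which stood at 21.5 and 22.8 TPM. Tyrobp-203, from the gene of the microglial adaptor of TREM2, stood at 1.53 and 1.04 TPM, which was 0.659% and 0.413% of its gene. Clu-205, from the gene of the extracellular chaperone clusterin, was listed at 1.25 and 3.33 TPM in the RSEM layout but at 95.9 and 124 TPM in the kallisto layout. Its donor lies 4 bases downstream of that of Clu-201, which stood at 782 and 718 TPM.

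Metabolic and protein turnover genes held further members. In oxidative phosphorylation 7 of 22 detected genes with an annotated transcript of the class (31.8%) held 8 members, with a median share of 25.3%. Over all such genes at 50 to 200 TPM, where the median of the whole list lay at 98.5 TPM, 49.6% held a member. After Ndufa3-204 came Atp5f1-203, of ATP synthase, at 42.9 and 44.4 TPM (42.3% and 42.6%), Ndufs4-204 of complex I at 21.7 and 28.7 TPM, and Ndufa10-207 of complex I at 16.9 and 29.9 TPM. The kallisto layout gave 29.1 and 29.1, 35.0 and 43.0, and 23.9 and 34.7 TPM for these 3. In the proteasome and ubiquitin list 16 of 46 genes with such a transcript (34.8%) held a member, with a median share of 16.6%. Over all such genes at 20 to 50 TPM, where the median of the whole list lay at 36.3 TPM, the percentage was 36.1%. Its highest were Ube2e2-209, Usp7-206, Ube2n-205 and Psma3-201, at 14.99 to 19.1 TPM on average in the RSEM layout. In the kallisto layout Psma3-201 was first of these at 47.4 and 43.6 TPM and Ube2e2-209 last at 6.52 and 5.64 TPM. Among translation factors, with a median of 33.3 TPM, 6 of 13 genes with such a transcript (46.2%) held 7 members, against the same 36.1%. Eif4a2-210 and Eef1b2-205 were highest, the latter at 42.4 and 48.7 TPM (29.1 and 26.8 TPM in the kallisto layout), followed by Eif4a2-204 and Eif4g1-222. Sat1-207, from the gene of a polyamine-degrading enzyme, was the sole member of the stress list, at 1.5 and 1.31 TPM. Circadian and cold-response genes, with a median of 30.4 TPM, held no member, with 3 of 17 carrying an annotated transcript of the class. Over all genes at 20 to 50 TPM with such a transcript 36.1% held one.

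Structure separated the members from coding transcripts at the same expression threshold, as the class definition implies. The stop codon lay more than 50 nucleotides before the last exon junction in 1197 of 1203 members with an annotated stop (99.5%), against 71 of 17675 protein_coding transcripts past the threshold (0.402%). The median distance was 406 nucleotides with quartiles of 198 and 914.5, and a median of 3 junctions followed the stop. The 6 exceptions, named because they are few, were Srrm1-204, whose stop lies 3 nucleotides after the last junction, and Huwe1-212, Arhgap23-204, Atp11b-211, Thap12-204 and Cdipt-203 at 30, 35, 41, 50 and 50 nucleotides before it. All 1203 annotated stops read as a stop codon in the transcript sequence. TGA made up 55.3% of them, against 50.03% in coding transcripts, TAA 23.4% against 26.7% and TAG 21.3% against 23.2%.

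**Figure D3:**
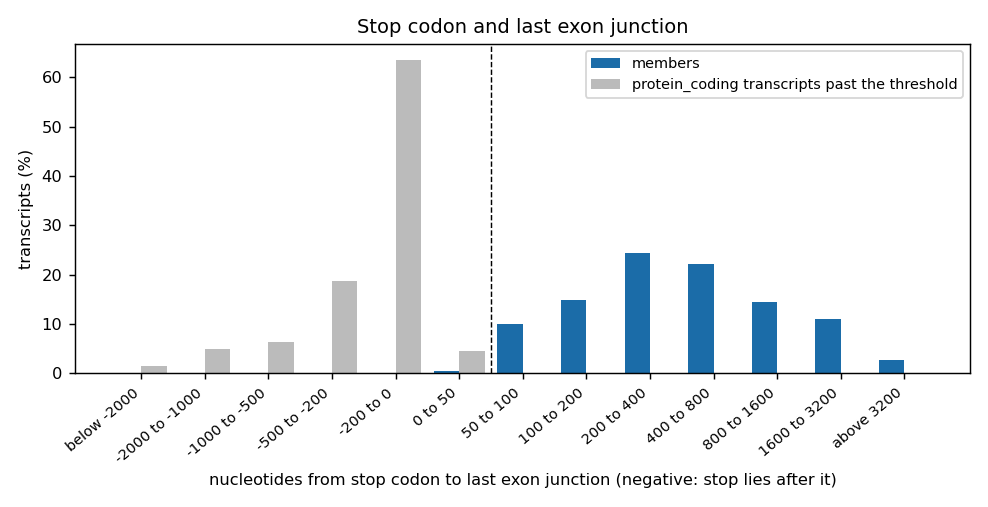
Percent of transcripts by the distance in nucleotides from the stop codon to the last exon junction, members in blue and protein_coding transcripts past the same TPM threshold in grey; negative distances mean that the stop lies after the junction. The dashed line marks 50 nucleotides, and 99.5% of members lie to its right against 0.402% of coding transcripts.

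The members depart from their coding transcripts in a few recurring ways. Where there was one, the member was compared with a coding transcript of its gene that begins at the same start codon. A coding transcript with the same coding sequence was taken first, whatever its level. An exon was skipped in 247 members (20.5%), an extra exon was present in 184 (15.3%), the donor was shifted in 139 (11.5%) and the acceptor in 133 (11.0%). An intron was kept in 28, the coding sequence was the same in 66, and 294 members (24.4%) lack an annotated start codon and could not be compared. Nor could 24 that begin at another start codon and 18 in genes with no coding transcript. The proportions were near those of the annotated class, where 18.7% skip an exon and 14.6% have an extra one. Kept introns passed the threshold most often, in 28 of 86 annotated cases (32.6%), against 14.3% of transcripts without an annotated start.

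Frame was broken in the way each event allows. The median skipped stretch was 107 nucleotides, and 16 of 247 (6.48%) were a multiple of 3, which would leave the frame intact. Extra exons had a median of 109 nucleotides, and 56 of 184 (30.4%) were a multiple of 3; in 46 of these 56 the stop codon lay inside the extra exon. Over all extra exons the stop lay inside in 142 of 184 (77.2%), against 79.7% in the annotated class. Of 272 shifted splice sites 43 (15.8%) moved by a multiple of 3 and 111 (40.8%) moved by at most 30 nucleotides. In all, 793 members differ in coding sequence from the coding transcript compared, where that transcript has an annotated stop codon. Their reading frame held a median of 26.9% of the codons of the coding transcript, and in 588 it held under 50%. These include events that are a multiple of 3.

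**Figure D4:**
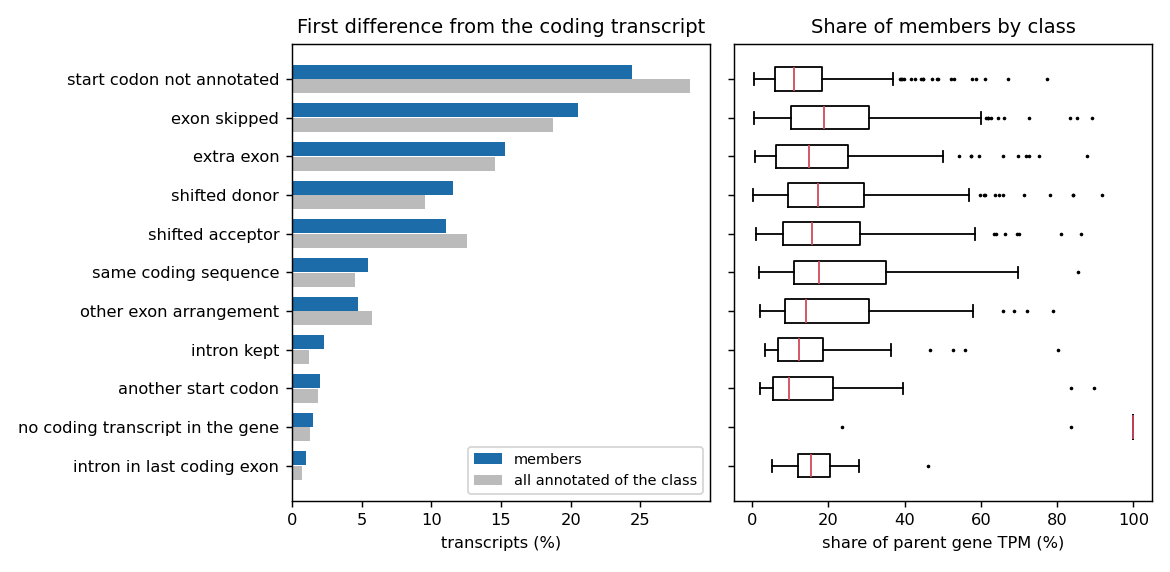
Left, percent of transcripts by first difference from the coding transcript, members in blue and all annotated transcripts of the class in grey, for kinds with at least 12 members. Right, share of parent gene TPM in percent for the members of each kind, as boxes of median and quartiles with whiskers to 1.5 times the interquartile range and points beyond; medians lie between 9.77% and 18.9%, apart from genes with no coding transcript at 100%.

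The kinds differed little in level, with median TPM between 2.45 for another start codon and 5.30 for transcripts that keep the coding sequence, among kinds with at least 12 members. Median shares were 18.9% for skipped exons, 17.2% for shifted donors, 15.6% for shifted acceptors, 15.01% for extra exons and 10.9% for members without an annotated start. By place, the stop codon lay inside sequence that is coding in another transcript of the gene in 638 members, outside every exon of the coding transcripts in 427, at the stop of a coding transcript in 104 and in an exon but outside coding sequence in 16. Their median shares were 16.8%, 11.3%, 16.1% and 14.4%.

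Many members share nearly all of their sequence with other transcripts of the gene. In 556 members no base was their own, and 134 of these had no junction of their own either. Transcript support level 1, where every junction is backed by a transcript record, was given for 450 members, and level 5, where no single record backs the structure, for 357. The deposited posterior SD, the uncertainty of dividing reads among transcripts, had a median of 17.9% of the count in members, against 7.27% in protein_coding and 11.2% in retained_intron transcripts past the threshold. It was 12.5% in the 389 members with 100 or more own bases and 21.09% in the 258 with 1 to 99. In the 422 with an own junction only it was 20.94%, and in the 134 with neither a base nor a junction of their own 21.02%. The absolute log2 ratio between the layouts had medians of 0.26, 0.41, 0.45 and 0.39 in these sets, in the same order.

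The layouts gave TPM within 2-fold of each other in both libraries for 952 members (79.0%). The rule itself required 1 TPM in both layouts, so transcripts seen in 1 layout alone were left out beforehand. Of the class, 1480 transcripts reached 1 TPM in both libraries in the RSEM layout and 1918 in the kallisto layout, against 1205 in both layouts. In 69 members (5.73%) the kallisto layout was at least 2-fold higher in both libraries, against 3.92% of all 31148 transcripts past the threshold, and in 48 (3.98%) it was at least 2-fold lower, against 2.83%. The widest differences were Clu-205, Rpl27a-205 and Pisd-207 on the higher side and Rpl12-201, Hnrnpu-209 and Arf4-203 on the lower. Pisd-207, from a gene of phosphatidylethanolamine synthesis, rose from 1.66 and 1.83 TPM to 34.0 and 33.5 TPM. Arf4-203, from the gene of a small GTPase of membrane traffic, fell from 31.7 and 32.9 TPM to 3.60 and 4.45 TPM. In all 6 the libraries gave the same side, but the 6 were chosen by the mean of both libraries, which largely fixed this. The median log2 ratio of the layouts was 0.28 for the 117 members of at most 600 nucleotides and -0.06 for the 347 members of 1500 to 3000 nucleotides.

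Between the replicates most members were even, among transcripts that the rule required to reach 1 TPM in both libraries. The ratio of replicate 2 over replicate 1 was taken from scaled expected counts, and 38 of the 713 members with a mean count of at least 100 differed by 2-fold or more (5.33%), 16 higher and 22 lower in replicate 2. Over all 20505 transcripts at that count 2.56% did so. From 100 to 200 counts 8.19% of members, 5.64% of protein_coding and 1.90% of retained_intron transcripts passed 2-fold, from 200 to 400 counts 5.07%, 4.27% and 0.958%, and from 400 to 800 counts 1.82%, 1.80% and 0%. By this percentage members were nearer to protein_coding than to retained_intron transcripts in each of these count ranges. The median absolute log2 ratio of members, protein_coding and retained_intron transcripts was 0.343, 0.263 and 0.229 from 100 to 200 counts. It was 0.190, 0.144 and 0.152 from 400 to 800 counts and 0.127, 0.115 and 0.138 over 800. In these higher ranges the median of members was nearer to that of retained_intron transcripts. With 2 libraries of 1 group these differences have no replicate check beyond the pair itself.

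**Figure D5:**
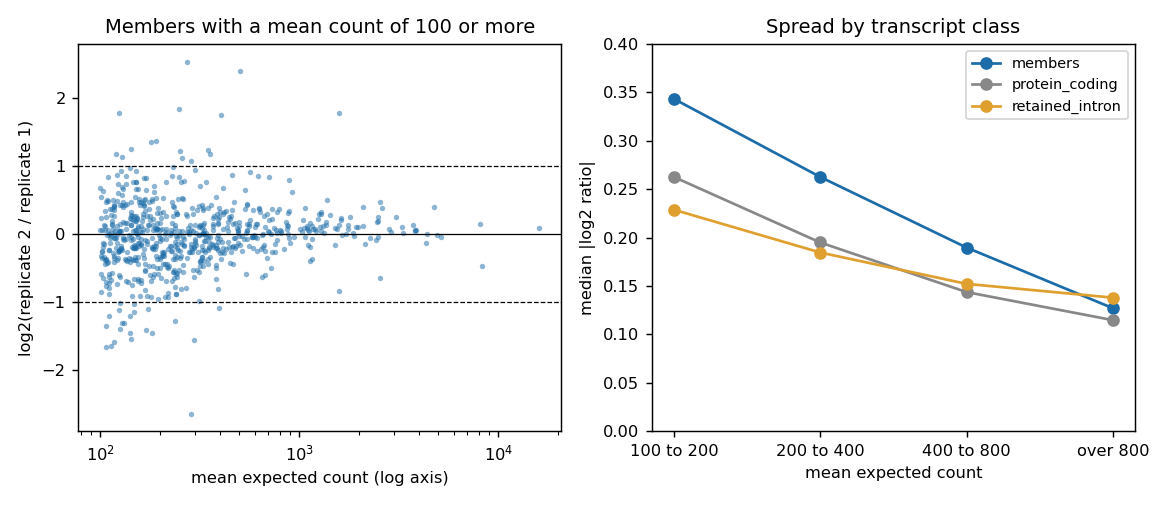
Left, log2 ratio of replicate 2 over replicate 1 against mean expected count (log axis) for the 713 members with at least 100 counts, with dashed lines at 2-fold. Right, median absolute log2 ratio by count range for members, protein_coding and retained_intron transcripts past the threshold; members lie above both other classes from 100 to 800 counts and between them over 800.

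The members past 2-fold had less certain counts than the others. Their median posterior SD was 25.8% of the count, against 12.8% in the other members at 100 counts or more. Of the 38, 35 belong to genes whose own TPM moved by under 1.5-fold, a count that was not set against the other members. The lowest ratios were Coro1c-205 at a log2 ratio of -2.64, Fbxo44-204 at -1.65, Traf7-216 at -1.65, Tmem161a-209 at -1.59 and Rin2-208 at -1.56. The highest were Hnrnpa2b1-209 at 2.54, Eif4a2-204 at 2.40, Gpcpd1-213 at 1.84, Kcna6-201 at 1.79 and Vps33b-206 at 1.78. By kallisto-layout counts 8 of the 38 passed 2-fold the same way and 5 took the opposite sign, among them Hnrnpa2b1-209 at -0.39 and Tmem161a-209 at 0.23. The widest of these was Supt5-202, named after its values were seen, at 1.12 by RSEM-layout counts and -1.74 by kallisto-layout counts. Of the 10 ratios named here, those of Rin2-208 and Eif4a2-204 stayed past 2-fold by kallisto-layout counts.

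At Kcna6 the member and the coding transcript moved in opposite directions. From the gene of a voltage-gated potassium channel, it rose from 5.70 to 19.6 TPM, while the coding transcript Kcna6-204, which has the same 529 codons, went from 13.7 to 0.01 TPM. In the kallisto layout Kcna6-201 stood at 15.1 TPM in both libraries and Kcna6-204 at 1.21 and 0.950 TPM. The member has 2 bases and no junction that no other transcript holds. Eif4a2-204 was higher in replicate 2 in both layouts, at 3.93 and 20.7 TPM in the RSEM layout and 1.37 and 9.08 TPM in the kallisto layout. Its gene stood at 365 and 383 TPM, of which it took 1.08% and 5.41%. Eif4a2-204 has no base and no junction of its own, and its 144 expected counts in replicate 1 had a posterior SD of 107.

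H2-Eb1-205, chosen after its values were seen, was the member past 2-fold with the least uncertain counts, at a posterior SD of 11.96%. From a class II antigen presentation gene, it stood at 10.4 and 3.69 TPM, and at 11.6 and 4.02 TPM in the kallisto layout. The log2 ratio was -1.45 in the RSEM layout and -1.46 in the kallisto layout. The summed TPM of its gene, which includes the member, was 15.7 and 7.66 TPM, and the share of the member moved from 66.3% to 48.2%.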

How the data were processed

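Total RNA of 2 libraries of 1 group was analysed, from per-library tables made on mm10 with GENCODE M21, per the file headers. In the column layout of RSEM, the authors deposited for each transcript and gene an expected count with its posterior SD, and TPM. A second table, deposited in kallisto's layout, holds for each transcript an estimated count and TPM. Which programs and versions made them is not given in the sources used here. Effective lengths differ between the layouts, which bears most on short transcripts, and expected counts divide reads among transcripts that share sequence. The deposited TPM can lie outside its deposited interval, whose level is not stated, so intervals were not used. No CAST sequence was used.

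Means, SDs and shares of the parent gene (TPM over the summed TPM of the gene's transcripts) were computed from the TPM tables with Python 3.11.15, numpy 2.4.6 and pandas 2.3.3, and plotted with matplotlib 3.10.9. Structure, coordinates and sequences came from the GENCODE M21 annotation and transcripts. Expected counts were rounded, edgeR 4.0.16 (R 4.3.3) supplied TMM scaling, and the log2 ratio between replicates used CPM with a prior count of 2 over the whole transcript table. It was tested on simulated data. A difference was called at 2-fold, without any hypothesis test, since 1 group allows none. Alternatives were other TPM and count thresholds, the other layout, each replicate left out, and scaling by DESeq2 1.42.0 size factors or by library size.

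The members and the 16 gene lists were chosen with earlier results of these data known. Named members are the 20 highest by TPM, the 20 highest by share in genes of at least 5 TPM, all members of the NMD factor, SR, hnRNP, Alzheimer and synaptic lists and the 4 highest of each other list. They further include the 5 highest and 5 lowest replicate ratios, the 3 widest layout differences each way and the 3 transcripts nearest the threshold on each side. Floors and counts cover counting error only, since reads carry no molecular identifiers. Some members and genes that this rule names are not reported here.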

Additional observations from a re-analysis of the deposited data

How the results depend on the processing

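No paired analysis was possible because both libraries belong to 1 group. The number of members was 706 at a TPM of at least 2, 294 at a TPM of at least 5 and 1918 by the kallisto layout alone, against 1205, and 1519 and 1590 without replicate 1 and without replicate 2. The median share was 15.3% by kallisto-layout TPM, 11.1% by expected counts and 14.4% in genes of at least 5 TPM, against 14.9%, and 14.7% and 14.8% without replicate 1 and without replicate 2. Chosen after seeing the data, it was 14.7% for members with a base or junction of their own, 16.7% for members with an annotated start codon and 14.5% without readthrough members and genes with 1 transcript. The class took 2.76% of the TPM of nuclear protein-coding genes alone and 1.44% of mouse TPM in the kallisto layout, against 1.25%.

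Members past 2-fold between replicates numbered 80 with no count filter, 59 at 50 counts and 6 with a posterior SD under 20% of the count, a setting chosen after seeing the data, against 38. By kallisto-layout counts the log2 ratio of Tmem161a-209 was 0.23 and that of Hnrnpa2b1-209 was -0.39, and the cause was not tested. Of the 10 named log2 ratios, 2 stayed past 2-fold in the same direction by kallisto-layout counts, 6 fell within it and 2 changed sign. The other scalings shift all transcripts alike and changed none of the 10. Members 2-fold higher in the kallisto layout numbered 114 without replicate 1 and 107 without replicate 2, against 69, and those lower 79 and 71, against 48, because 1 library then suffices. At 55 nucleotides 98.4% of stop codons met the junction rule, against 99.5%.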
